A study of Homo sapiens with 28 samples.

Results

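RAG1 and RAG2, the genes of the V(D)J recombinase, were followed as 2 of the 7485 genes in the authors' deposited table of an activation time course. They were taken by gene symbol and chosen by their group means in this table, which are far lower after activation, so their own levels and changes are given as a description with no test. The cells were Jurkat, an established human line derived from a T cell leukaemia, and 28 samples were collected in 10 groups. Activation used PMA, a phorbol ester that activates protein kinase C, at 0.5 µg/ml together with PHA, a lectin that crosslinks the T cell receptor, at 2 µg/ml. The groups were unactivated cells and cells 1, 2, 3 and 4 h after activation. Each was sampled as labelled RNA, which carried 4-thiouridine (4sU), a uridine analogue built into new transcripts, and was pulled down through it, and as total RNA, with 14 samples of each kind. There were 3 samples in every group except at 1 h, where there were 2 of each kind. None of these groups is an untreated culture taken at 1 to 4 h, so time in culture and activation cannot be told apart. All samples come from 1 cell line, and nothing in the labels says that they were separate cultures, so every SD measures the spread between samples, which may be technical.

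For each group the table gave a normalised expression value as the authors' mean with its SD, and not the single samples. The values of a group summed to between 913920 and 1037500, and the depth of the libraries is unknown. The median SD as a share of the mean was 10.4% to 18.2% over the groups of labelled RNA and 6.37% to 11.2% over those of total RNA. Of the T cell markers, 6 of 11 were in the table, among them CD3D, a chain of the T cell receptor complex, with a total RNA level of 671 ± 30.1, and the kinase gene LCK with 558 ± 57.3 in unactivated cells (SD, n = 3). Of the B cell markers, 0 of 6 were in the table. Absence from the table does not show a lack of expression, since some T cell markers were missing from it too. Of the myeloid markers, 1 of 6 was there, AIF1 at 86.2 ± 6.64 in total RNA of unactivated cells (SD, n = 3), and its part in the levels below was not tested.

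The RAG1 and RAG2 proteins form an endonuclease that cuts DNA at recombination signals beside the V, D and J segments of antigen receptor genes, and the end-joining machinery then joins the segments. RAG1 carries the catalytic site and contacts the signals, and RAG2 is its partner, with a PHD finger that reads trimethylated lysine of histone H3 in active chromatin. Thymocytes express both genes while they assemble receptor chains and switch them off after positive selection, and signalling through the antigen receptor is known to lower RAG expression in immature lymphocytes. Mature blood T cells do not express them, while leukaemias of immature T lineage cells are known to.

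The genes lie next to each other on chromosome 11 and point towards each other. In RefSeq, on GRCh38.p14, RAG1 spans chr11:36510353-36579762 on the plus strand and RAG2 spans chr11:36590996-36598236 on the minus strand, with 11.2 kb between their ends. The annotated start of RAG1 lies 81 bases from that of TRAF6, which runs the other way, and RAG2 overlaps the opposite-strand gene IFTAP over 3735 bases. IFTAP was not analysed here, and no source used here says how the authors' counting used strand, so reads of RAG2 and IFTAP in that stretch cannot be told apart. The coding RAG1 transcript of GENCODE begins 57.7 kb downstream of the RefSeq gene start, so the first window below is the annotated gene start and not the start of that transcript. The 2 windows of 300 bases, from RefSeq, are shown because the levels of both transcripts were lower together, and capitals mark matches to the E-box CANNTG and to the GATA motif AGATAA on either strand.
RAG1 gene start (chr11:36510103-36510402, plus strand): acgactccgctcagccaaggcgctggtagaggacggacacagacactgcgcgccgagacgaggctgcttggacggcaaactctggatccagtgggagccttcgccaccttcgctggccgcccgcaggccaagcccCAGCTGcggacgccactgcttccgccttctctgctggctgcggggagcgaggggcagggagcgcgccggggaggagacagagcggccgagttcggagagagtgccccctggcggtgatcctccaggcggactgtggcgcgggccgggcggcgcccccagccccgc
RAG2 gene start (chr11:36598187-36598486, minus strand): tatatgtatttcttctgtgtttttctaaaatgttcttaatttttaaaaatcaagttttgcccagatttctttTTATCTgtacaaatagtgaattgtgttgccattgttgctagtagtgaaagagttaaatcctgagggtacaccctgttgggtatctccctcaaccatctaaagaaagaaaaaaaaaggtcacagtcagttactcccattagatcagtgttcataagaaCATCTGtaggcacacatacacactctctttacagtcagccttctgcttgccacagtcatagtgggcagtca
The start windows had little in common in base composition. The RAG1 window was 72.3% G and C with 32 CpG sites, and the RAG2 window was 36.7% G and C with 0 CpG sites. Each held 1 E-box, the motif bound by E proteins such as TCF3 and TCF12, at position -115 from the annotated start in RAG1 and at position -21 in RAG2. The RAG1 window also covers the annotated start of TRAF6, and its E-box lies inside TRAF6. Its base composition and E-box therefore cannot be assigned to RAG1 alone. An E-box was also found in 68.7% of all 35116 promoter windows of this length. The GATA motif was found once, at position -178 of RAG2, and in 10.3% of all windows. Searches of both strands for the NF-Y core CCAAT, the forkhead core GTAAAC, the TATA motif TATAAA, the ETS motif CCGGAA and the Ikaros core TGGGAA gave 0 matches in either window. No match overlapped a match of another motif.

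The other end of each transcript was searched for AUUUA, the core of the AU-rich elements that are known to mark unstable messenger RNAs and that HuR (gene ELAVL1) can bind. The coding RAG1 transcript in GENCODE is 6564 bases long, encodes 1043 residues and has 3320 bases after its stop codon, with 13 AUUUA matches. The coding RAG2 transcript is 2388 bases long, encodes 527 residues and has 642 bases after its stop codon, with 5 matches. A match was present in 79.9% of the 7079 genes with such a stretch. RAG2 had 7.79 matches per kb, and 2.22% of the genes were denser, while RAG1 had 3.92 per kb, and 19.7% were denser, against a median of 2.13 per kb. One stretch of 30 bases with 2 matches, in capitals, is shown for each gene.
RAG1, from base 820 after the stop codon: auuucaagaaAUUUAgaguuuccaaAUUUA
RAG2, from base 201 after the stop codon: uuuuacccaaauacucaAUUUAcuaAUUUA
The longer AU-rich nonamer UUAUUUAUU was found 0 times in both genes.

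RAG1 in total RNA was high in unactivated cells and almost gone at 4 h. Its level in the authors' deposited table was 349 ± 5.96 in unactivated cells (SD, n = 3), 250.1 ± 33.5 at 1 h (n = 2), 88.5 ± 9.52 at 2 h, 19.4 ± 1.35 at 3 h and 11.8 ± 0.545 at 4 h (n = 3 each). With 2 samples at 1 h, the mean and SD fix both values, which were 226 and 274. With 3 samples, no sample can lie further than 1.15 SD from its mean, which bounds the unactivated samples to between 343 and 356 and the 4 h samples to between 11.1 and 12.4. No hour overlapped with the one next to it in level, and each hour was below the one before. Of the unactivated mean, 71.6% ± 6.82 was left at 1 h, 25.3% ± 1.59 at 2 h, 5.54% ± 0.230 at 3 h and 3.37% ± 0.0960 at 4 h (SE from the deposited SDs). The level at 4 h was 29.7-fold lower than in unactivated cells by the ratio of the means. Here and below, log2 changes are of value + 1, which makes them smaller for low levels, and on that scale the change at 4 h was -4.78 ± 0.04 (SE).

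RAG2 in total RNA was lower at every hour too, by a smaller factor, and was level between 3 and 4 h within its spread. Its level was 49.5 ± 5.21 in unactivated cells (SD, n = 3), 37.7 ± 2.66 at 1 h (n = 2, values 35.8 and 39.5), 17.8 ± 2.39 at 2 h, 5.42 ± 1.07 at 3 h and 5.58 ± 1.25 at 4 h (n = 3 each). The samples at 3 h and 4 h can overlap, and every other neighbouring pair of hours in the order of levels was separate. What was left was 76.1% ± 5.99 of the unactivated mean at 1 h, 36.1% ± 3.55 at 2 h, 10.9% ± 1.42 at 3 h and 11.3% ± 1.61 at 4 h (SE). The level at 4 h was 8.86-fold lower than in unactivated cells by the ratio of the means, and the change of log2(value + 1) was -2.94 ± 0.18 (SE). In bulk RNA, fewer cells that make a transcript and less of it per cell cannot be told apart.

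Both genes stood among the largest drops of the table, which is how they were picked. In order of the log2 change of total RNA from the lowest, RAG1 was number 34 of 7485 genes at 1 h and number 1 at 2, 3 and 4 h. RAG2 was number 75 at 1 h, number 5 at 2 h and number 2 at 3 and 4 h. In labelled RNA, RAG2 was number 1 and RAG1 number 2 at 1 h, and the order was reversed at 2, 3 and 4 h. The median log2 change over all genes lay between 0.02 and 0.07 in total RNA and between -0.01 and 0.03 in labelled RNA.

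**Figure D1:**
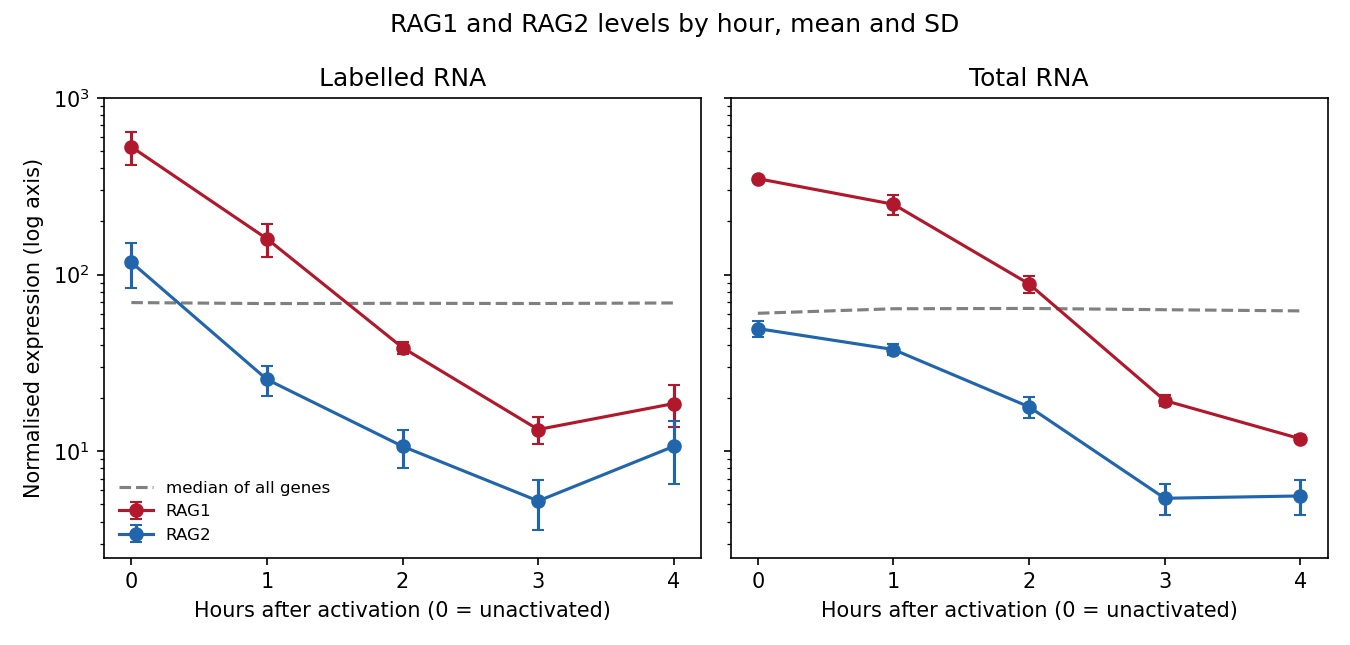
Normalised expression of RAG1 and RAG2 (log axis, authors' means with SD, n = 3, and n = 2 at 1 h) against hours after activation, in labelled RNA and in total RNA, with the median of all genes dashed. Values are not divided by transcript length. RAG1 in total RNA was 11.8 at 4 h, against 349 in unactivated cells, and the labelled mean of both genes was lowest at 3 h.

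For 1 h in total RNA the number of reads behind a value can be worked out. The 2 values of each of 3166 genes with a mean under 50 were all whole multiples, within 0.02 read, of 1 read. This holds for library sizes of about 11180000 and 11053000, if the values are CPM. The highest group sum, 1037500, is more than plain CPM can reach. The values may therefore carry a normalisation factor, and these sizes need not be the reads sequenced. On that scale the RAG2 values at 1 h rest on 400 and 437 reads, and those of RAG1 on 2502 and 3061 reads. No other group of total RNA has 2 samples, so the number of reads behind the lower RAG2 levels at 3 and 4 h is unknown.

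Labelled RNA of both genes was already much lower at 1 h, when most of the total RNA was still there. RAG1 in labelled RNA was 529 ± 114 in unactivated cells (SD, n = 3), 159.6 ± 33.6 at 1 h (n = 2, values 136 and 183), 38.6 ± 3.03 at 2 h, 13.3 ± 2.35 at 3 h and 18.6 ± 4.96 at 4 h (n = 3 each). The samples at 3 h and 4 h can overlap, and the other hours were separate from their neighbours in level. Labelled RAG1 RNA was at 30.2% ± 5.85 of its unactivated mean at 1 h, 7.29% ± 0.963 at 2 h, 2.51% ± 0.403 at 3 h and 3.52% ± 0.696 at 4 h (SE).

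RAG2 in labelled RNA was 117 ± 33.8 in unactivated cells (SD, n = 3), 25.5 ± 4.93 at 1 h (n = 2, values 22.0 and 28.99), 10.7 ± 2.58 at 2 h, 5.23 ± 1.64 at 3 h and 10.7 ± 4.12 at 4 h (n = 3 each). The 4 h samples can overlap with those at 2 h and at 3 h, while the 3 h samples lay below those at 2 h. Of the unactivated mean, 21.7% ± 4.67 was left at 1 h, 9.08% ± 1.97 at 2 h, 4.45% ± 1.10 at 3 h and 9.08% ± 2.52 at 4 h (SE). The mean at 4 h was 204% ± 58.6 of that at 3 h in RAG2, and 140% ± 25.9 in RAG1. Neither step upward was large against the SD of 3 samples, which at 4 h was 38.6% of the mean in RAG2 and 26.6% in RAG1.

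**Figure D2:**
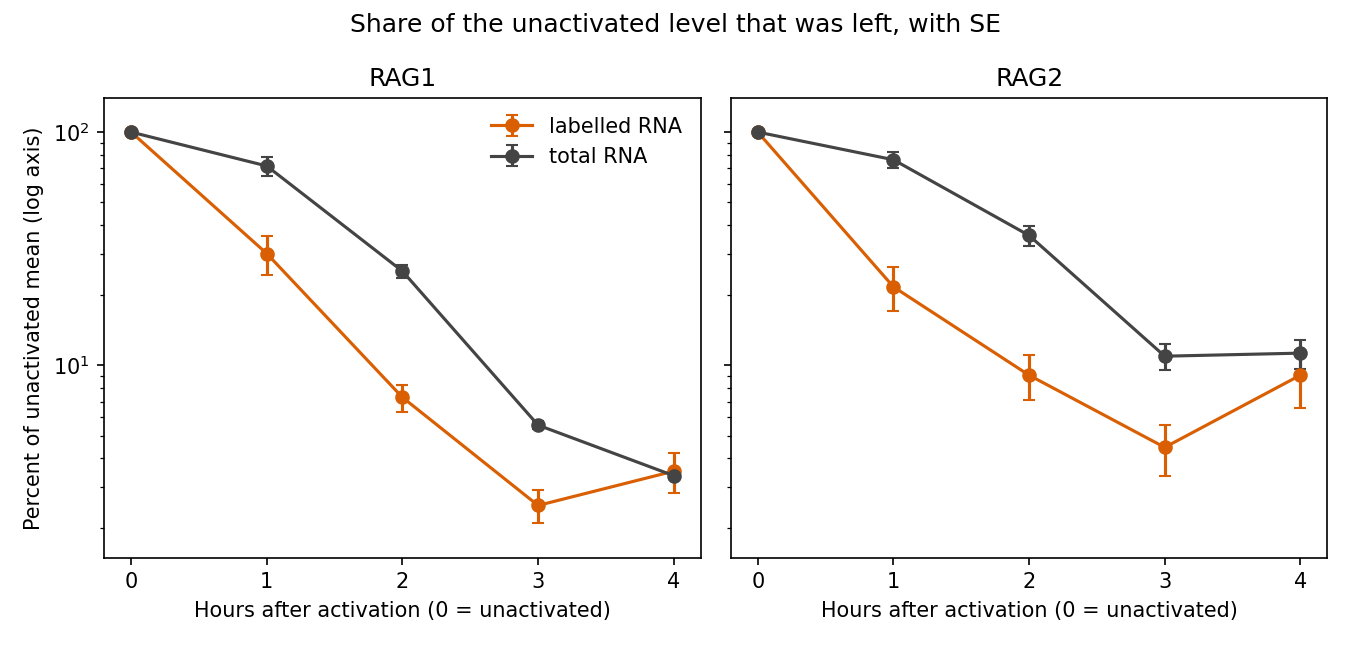
Percent of the unactivated mean that was left (log axis, with SE from the deposited SDs) against hours after activation, for RAG1 and RAG2, with labelled RNA in orange and total RNA in grey. At 1 h labelled RNA stood at 30.2% for RAG1 and 21.7% for RAG2, below total RNA at 71.6% and 76.1%, and at 4 h both kinds of RNA had come close together.

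The speed of the drop differed between the kinds of RNA and between the hours. Expressed as the time in which the level would fall by one factor of 2 at the rate of each hour, labelled RAG1 RNA gave 34.7 ± 5.61 min for the first hour, 29.3 ± 3.22 min for the second and 39.0 ± 4.08 min for the third (SE). Total RAG1 RNA gave 124 ± 35.4 min for the first hour, 40.1 ± 4.37 min for the second, 27.4 ± 1.33 min for the third and 83.4 ± 8.08 min for the fourth. Total RAG1 RNA thus dropped most quickly between 2 and 3 h. For RAG2, labelled RNA gave 27.2 ± 3.83 min, 47.7 ± 10.7 min and 58.4 ± 18.8 min for the first 3 hours. Total RAG2 RNA gave 152 ± 43.9 min, 55.7 ± 6.86 min and 34.9 ± 4.04 min, and no such time exists for the fourth hour, when its mean was 103% ± 17.8 of the one before. These times describe the net level, which new synthesis and decay both set.

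The labelled-to-total ratio of both genes passed through a low at 2 h and was back near its starting value at 4 h. The ratio is that of separately normalised values, so it is relative to other genes, whose median lay between 1.05 and 1.12 at every hour. Its SEs take labelled and total samples as independent. The sample titles share replicate letters between the kinds of RNA, and group means and SDs do not allow for such pairing. For RAG1 it was 1.51 ± 0.188 in unactivated cells, 0.638 ± 0.113 at 1 h, 0.436 ± 0.0335 at 2 h, 0.685 ± 0.0752 at 3 h and 1.58 ± 0.247 at 4 h (SE). RAG1 thereby lay at percentile 70.1 of all genes in unactivated cells, 16.7 at 1 h, 3.59 at 2 h, 21.4 at 3 h and 71.9 at 4 h. For RAG2 the ratio was 2.37 ± 0.420 in unactivated cells, 0.677 ± 0.0986 at 1 h, 0.598 ± 0.0955 at 2 h, 0.965 ± 0.207 at 3 h and 1.91 ± 0.492 at 4 h (SE). Its percentile was 89.9 in unactivated cells, 20.6 at 1 h, 15.9 at 2 h, 42.7 at 3 h and 79.4 at 4 h. At 1 and 2 h both genes differed from both ends of the time course by more than the SEs, and at 4 h the ratios lay within 1 SE of those in unactivated cells.

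**Figure D3:**
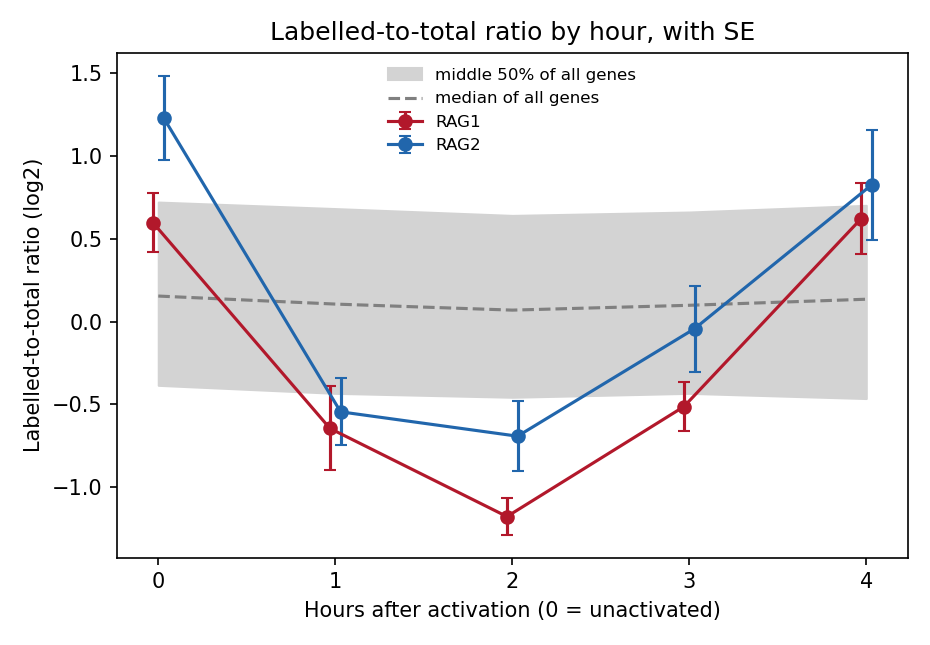
Labelled-to-total ratio (difference of log2(value + 1), with SE) of RAG1 and RAG2 against hours after activation, over the band that holds the middle 50% of all genes and their dashed median. Both genes lay at or above the upper part of the band in unactivated cells and at 4 h, and RAG1 was at its lowest, -1.18, at 2 h.

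Scaled by the length of 1 GENCODE transcript per gene, RAG1 stood above RAG2 before activation and no longer so at 4 h. The authors' RPKM, 36.8 for RAG1 and 39.5 for RAG2, did not put RAG1 higher. No source used here gives its samples and gene lengths, so which messenger was more abundant is not settled. Divided by the lengths of the GENCODE transcripts, total RNA held 53.2 ± 0.908 per kb of RAG1 and 20.7 ± 2.18 per kb of RAG2 in unactivated cells (SD, n = 3). At 2 h it held 13.5 ± 1.45 per kb of RAG1 and 7.47 ± 1.00 per kb of RAG2, and at 4 h 1.79 ± 0.0831 per kb of RAG1 and 2.34 ± 0.525 per kb of RAG2 (SD, n = 3). In labelled RNA the levels were 80.6 ± 17.3 per kb of RAG1 and 49.2 ± 14.1 per kb of RAG2 in unactivated cells, and 2.84 ± 0.756 per kb of RAG1 and 4.46 ± 1.72 per kb of RAG2 at 4 h. At 4 h the genes lay within their SDs of each other in both kinds of RNA. The unscaled ratio of RAG1 over RAG2 in total RNA was 7.06 ± 0.435 in unactivated cells, 6.64 ± 0.712 at 1 h, 4.96 ± 0.492 at 2 h, 3.58 ± 0.434 at 3 h and 2.11 ± 0.279 at 4 h (SE). In labelled RNA it was 4.50 ± 0.933, 6.26 ± 1.27, 3.62 ± 0.532, 2.54 ± 0.529 and 1.75 ± 0.473 in the same order of hours (SE). The SEs of this ratio take the genes as independent, although both were read in the same samples. By total level RAG2 was number 7320 of 7485 genes from the highest at 3 h and 7295 at 4 h, so the ratio there rests on low values. The part of reads shared with IFTAP in this ratio was not tested.

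The study's title names HuR and messenger stability, and the authors' deposited table gives a decay rate for each gene and hour. These rates equal the natural log of the total level less 0.266 times the labelled level, over the total level of the hour before (over the group's own total level in unactivated cells), which returned 100% of 36794 rates within 0.001. A more negative rate means that a smaller share was left as unlabelled RNA. The rates are made from the same levels and are given as a description. For RAG1 the rate in the authors' deposited table was -0.52 ± 0.15 in unactivated cells, -0.52 ± 0.17 at 1 h, -1.16 ± 0.18 at 2 h, -1.72 ± 0.15 at 3 h and -1.05 ± 0.22 at 4 h (the authors' SD). The median rate of all genes in that table lay between -0.36 and -0.29, and RAG1 was number 2138 of 7330 genes from the lowest in unactivated cells and number 121 of 7394 at 3 h. The authors' T score of the change from unactivated cells was -0.04 at 1 h, -4.82 at 2 h, -10.1 at 3 h and -3.49 at 4 h, where a negative score means a more negative rate than before activation.

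The RAG2 rate took a similar course from 1 to 4 h and started from a more negative value with a wide SD. In the authors' deposited table it was -0.998 ± 0.52 in unactivated cells, -0.47 ± 0.14 at 1 h, -0.92 ± 0.18 at 2 h, -1.49 ± 0.33 at 3 h and -0.68 ± 0.62 at 4 h. The lowest rate came at 3 h in both genes. RAG2 was already number 664 of 7330 genes from the lowest before activation, and its T scores in that table were 1.32, 0.243, -1.37 and 0.684 at 1, 2, 3 and 4 h. The SD of its unactivated rate, 0.52, was about as large as the largest shift from it, which came at 1 h. The table's annotation by HuR binding to 3′ ends listed RAG1 as a target and RAG2 as a non-target, with 4345 of 7124 annotated genes, or 61.0%, as targets. By the iCLIP annotation, a crosslinking assay of HuR binding, neither gene was a target, with 1455 of 7485 genes, or 19.4%, as targets.

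SELPLG and CXCR4 were among the 5 genes nearest in log2 change to both RAG1 and RAG2. Nearness was the Euclidean distance over 8 log2 changes from unactivated cells, 4 hours in each kind of RNA. This distance depends on the size of the drops as well as on their course. Among the 5 genes nearest to RAG1 were RAG2 at a distance of 2.87, SELPLG at 4.63, CXCR4 at 4.92 and MYC at 5.86. For scale, a gene with no change at all would lie 10.5 from RAG1 and 8.05 from RAG2. Among the 5 nearest to RAG2 were SELPLG at 2.35, CXCR4 at 2.60, RAG1 at 2.87 and SOX11 at 3.35. RAG2 thus lay nearer to SELPLG and CXCR4 than to RAG1.

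SELPLG encodes the selectin ligand PSGL-1, which lets leukocytes roll on vessel walls. In total RNA it was at 14.7 ± 1.86 at 4 h, against 86.5 ± 5.84 in unactivated cells, and in labelled RNA at 10.99 ± 3.75 at 4 h, against 89.0 ± 3.00 in unactivated cells (SD, n = 3). CXCR4, the receptor for the chemokine CXCL12, was at 71.6 ± 2.31 in total RNA at 4 h, against 316 ± 31.4 in unactivated cells, and at 104 ± 14.3 in labelled RNA at 4 h, against 597.5 ± 69.6 in unactivated cells (SD, n = 3). MYC and SOX11 are transcription factor genes. Their log2 changes at 4 h were -2.18 and -1.67 in labelled RNA and -1.82 and -1.39 in total RNA. These genes were chosen for being near, so their changes are no separate result. A ranking by Pearson correlation over the same 8 changes shared 1 of 5 genes with each list, which for RAG1 was SELPLG. CXCR4 was in neither list by Pearson correlation.

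**Figure D4:**
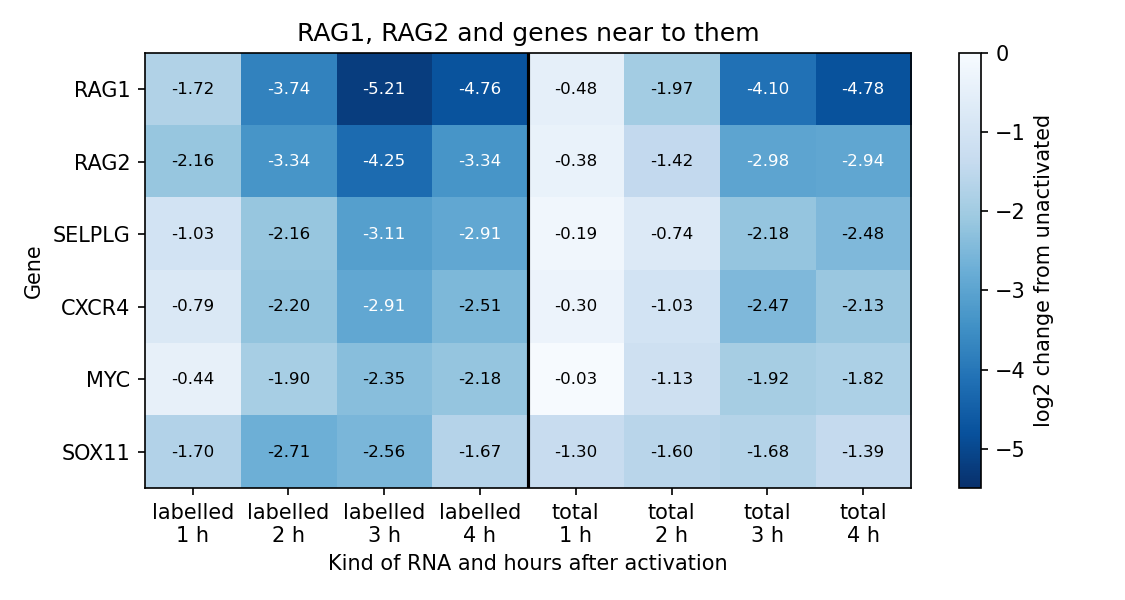
Log2 change from unactivated cells (colour and printed value) for RAG1, RAG2 and 4 other genes among the nearest to either, by kind of RNA and hours after activation. RAG1 reached -5.21 in labelled RNA at 3 h and -4.78 in total RNA at 4 h. It had the lowest change of all genes from 2 h on, so every other gene shown lay above it.

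The genes that work with or upstream of the recombinase were then set against unactivated cells at 1 h and 4 h, with limma on log2(value + 1) and Benjamini-Hochberg adjustment over all 7485 genes. In total RNA at 4 h, 21.4% of all genes rose and 14.5% fell at an adjusted p under 0.05, and in labelled RNA 13.7% rose and 13.7% fell. At 1 h, 0.788% rose and 0.147% fell in total RNA, and 4.20% rose and 2.07% fell in labelled RNA. Of the calls in total RNA, 84.3% were upward at 1 h, or 69.6% with the group medians set equal, and 59.6% at 4 h, or 51.0% with the medians set equal. The lists below come from general knowledge of the recombinase but were chosen with earlier results of these data known. Their counts of calls are therefore a description and not independent of these data. FOXP1, LEF1, STAT5B, TCF3, MYB, SATB1, HMGB1, HMGB2, XRCC5, XRCC6, PRKDC, NBN and ARPP21 are named outside the rule for naming genes, after their values were seen.

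Among known regulators of RAG transcription, 24 of 34 were in the table, and similar numbers moved each way. In total RNA at 4 h 7 rose, 7 fell and 10 were not called, while 21.4% of all genes rose and 14.5% fell. The list had 14 calls, against 15 with a minimum mean of 10 and 16 with the spread of the compared groups alone. SATB1, at a log2 change of 0.22, just missed the threshold (adjusted p = 0.05004, limma) and was called under both. The median log2 change was 0.08, against 0.02 over all genes. NFKB1, which encodes an NF-κB subunit, was at 375 ± 4.70 in total RNA at 4 h, against 100.5 ± 5.73 in unactivated cells, a log2 change of 1.89 ± 0.08 (adjusted p = 8.4e-13, limma). ID3 and ID1, which encode inhibitors that keep E proteins off E-boxes, also rose in total RNA. ID3 was at 8.05 ± 1.27 at 4 h, against 3.07 ± 1.08 in unactivated cells (log2 change 1.15 ± 0.17, adjusted p = 3.8e-05, limma), and ID1 at 19.3 ± 1.55 at 4 h, against 9.22 ± 1.76 in unactivated cells (0.99 ± 0.14, adjusted p = 2.5e-05, limma). IKZF3, which encodes the Ikaros family factor Aiolos, was at 27.4 ± 3.02 at 4 h, against 11.5 ± 1.61 in unactivated cells (1.18 ± 0.16, adjusted p = 1.3e-05, limma). FOXP1, LEF1 and STAT5B made up the other genes that rose, with log2 changes of 0.63, 0.49 and 0.63 in total RNA.

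The 7 regulators that fell in total RNA at 4 h are named here after their values were seen. They were BCL11A, TCF12, BCL11B, TCF7, GFI1, ETS1 and IKZF1, transcription factors of lymphocyte development. BCL11A fell by 0.92 on the log2 scale, TCF12 by 0.71, BCL11B by 0.69, TCF7 by 0.63, GFI1 by 0.57, ETS1 by 0.42 and IKZF1 by 0.39. TCF3, which encodes the E proteins E12 and E47, had a log2 change of 0.11 in total RNA and was not called (adjusted p = 0.42, limma). For scale, the log2 changes of RAG1 and RAG2 in total RNA at 4 h were -4.78 and -2.94. They were picked for these drops and were number 1 and 2 of all genes from the lowest. A smaller drop in every regulator was therefore fixed in advance.

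In labelled RNA the regulators moved at 1 h already. At 1 h 4 of 24 rose and 5 fell in labelled RNA, while 4.20% of all genes rose and 2.07% fell. Their median log2 change was -0.12, against 0.03 over all genes. In total RNA at 1 h 1 rose and 0 fell, while 0.788% of all genes rose and 0.147% fell. The regulator called in total RNA at 1 h was ID3, at a log2 change of 1.08 (adjusted p = 0.0048, limma), and labelled ID3 RNA changed by 1.31 at that hour (adjusted p = 0.0032, limma). Labelled NFKB1 RNA changed by 1.17 at 1 h and by 1.47 at 4 h on the log2 scale, and both were called. The 5 that fell in labelled RNA at 1 h, named after their values were seen, were MYB, TCF7, IKZF1, ETS1 and SATB1, with log2 changes of -0.95, -0.84, -0.47, -0.46 and -0.39. MYB, a factor of thymocyte proliferation, had a log2 change of 0.19 in labelled RNA at 4 h that was not called (adjusted p = 0.18, limma). At 4 h 4 of 24 rose and 4 fell in labelled RNA, with a median of -0.07, against -0.01 over all genes. These counts are close to the shares of all genes that rose (13.7%) and fell (13.7%). With the spread taken from the compared groups alone, or with a constant prior for the variance, the list had 5 calls in labelled RNA at 1 h in place of 9, and IKZF1, ETS1 and SATB1 were among those lost.

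Among genes of proteins that act with the recombinase or remove it, the largest change in total RNA at 4 h was that of SKP2. All 12 genes of this list were in the table, among them the DNA-bending proteins HMGB1 and HMGB2, the ubiquitin ligase parts that bind RAG1 and the machinery that degrades RAG2 at the entry into S phase. In total RNA at 4 h 2 rose, 2 fell and 8 were not called, with a median log2 change of 0.07, against 0.02 over all genes. These counts are close to the shares of all genes that rose (21.4%) and fell (14.5%). SKP2, the ligase subunit that recognises phosphorylated RAG2, was at 82.7 ± 4.15 in total RNA at 4 h, against 147.8 ± 7.30 in unactivated cells, a log2 change of -0.83 ± 0.09 (adjusted p = 4.2e-07, limma). CUL4A rose by 0.47 and CDK2, the kinase that marks RAG2 for degradation, by 0.35, while CCNA2, its cyclin partner, changed by -0.35, all on the log2 scale of total RNA at 4 h and all called. Labelled RNA had 0 higher and 1 lower call at 4 h, CCNA2, and 0 higher and 1 lower call at 1 h, SKP2. Of all genes, 13.7% rose and 13.7% fell in labelled RNA at 4 h, and 4.20% rose and 2.07% fell at 1 h. Labelled SKP2 RNA had a log2 change of -0.91 at 1 h (adjusted p = 0.0012, limma). HMGB1 and HMGB2 had log2 changes of -0.06 and -0.06 in total RNA at 4 h, which were not called.

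Calls among genes that join the cut ends went both ways, in numbers close to the shares of all genes. Of 16 end-joining genes 10 were in the table, and in total RNA at 4 h 2 rose, 2 fell and 6 were not called, with a median log2 change of -0.03, against 0.02 over all genes and with 21.4% of all genes rising and 14.5% falling. DCLRE1C, which encodes Artemis, the nuclease that opens the hairpin ends left by the recombinase, was at 36.4 ± 2.21 in total RNA at 4 h, against 22.4 ± 2.01 in unactivated cells (log2 change 0.68 ± 0.12, adjusted p = 0.00025, limma). LIG4, the ligase of the pathway, was at 76.5 ± 4.24 at 4 h, against 100.4 ± 6.51 in unactivated cells (-0.39 ± 0.08, adjusted p = 0.0013, limma). POLM, a polymerase that fills in ends, was at 4.73 ± 0.924 at 4 h, against 8.86 ± 1.36 in unactivated cells (-0.78 ± 0.19, adjusted p = 0.0031, limma). TDP2, which clears proteins stuck to DNA ends, changed by 0.30 and was called. XRCC5, XRCC6 and PRKDC, the genes of Ku80, Ku70 and the DNA-dependent kinase, had log2 changes of 0.17, -0.01 and 0.12 in total RNA at 4 h and were not called. In labelled RNA the list had 2 higher and 2 lower calls at 4 h, with 13.7% of all genes rising and 13.7% falling. At 1 h it had 1 higher call in labelled RNA, XRCC5 at 0.37, with 4.20% of all genes rising. That call was lost with the spread of the compared groups alone and with a constant prior. In total RNA at 1 h the list had 0 calls either way.

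Calls among the break response genes also went both ways, in numbers not far from the shares of all genes. Of 11 genes 10 were in the table, and in total RNA at 4 h 3 rose, 2 fell and 5 were not called. Of all genes, 21.4% rose and 14.5% fell. The median was 0.04, against 0.02 over all genes. ATM, the kinase that senses breaks, was at 280.3 ± 21.4 in total RNA at 4 h, against 186 ± 9.50 in unactivated cells (log2 change 0.59 ± 0.09, adjusted p = 3.0e-05, limma). In labelled RNA ATM was at 637 ± 54.5 at 4 h, against 295 ± 13.8 in unactivated cells, a log2 change of 1.11 ± 0.11 (adjusted p = 6.0e-11, limma). MRE11A and RAD50 encode partners in 1 complex and went opposite ways in total RNA, with log2 changes of 0.44 and -0.37, and NBN, the third partner, changed by 0.31. RNF168, a ubiquitin ligase at breaks, changed by -0.40. All 4 were called. At 1 h the list had 0 calls in either kind of RNA.

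The H3K4 methylation list covers the enzymes that write the mark read by the RAG2 finger. Of 12 genes 6 were in the table, and in total RNA at 4 h 0 rose, 1 fell and 5 were not called. Over all genes 21.4% rose and 14.5% fell. The list had a median log2 change of -0.09, against 0.02 over all genes. The gene that fell was MEN1, which encodes the scaffold menin, at 20.9 ± 2.26 at 4 h, against 27.1 ± 2.95 in unactivated cells (log2 change -0.36 ± 0.13, adjusted p = 0.032, limma). Labelled RNA of this list had 0 calls at 1 h and at 4 h.

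Genes typical of immature thymocytes moved in both directions. Of 18 genes 7 were in the table, and in total RNA at 4 h 2 rose, 4 fell and 1 was not called. Over all genes 21.4% rose and 14.5% fell. The list had a median log2 change of -0.32, against 0.02 over all genes. CD1D, CD1C and CD1E belong to a family of lipid-presenting molecules of cortical thymocytes. CD1D was at 4.33 ± 0.177 in total RNA at 4 h, against 13.3 ± 1.81 in unactivated cells (log2 change -1.42 ± 0.16, adjusted p = 1.2e-06, limma), and CD1E at 46.0 ± 4.05 at 4 h, against 71.3 ± 1.21 in unactivated cells (-0.62 ± 0.10, adjusted p = 5.3e-05, limma). CD1C was higher, at 17.4 ± 1.78 at 4 h, against 11.1 ± 0.569 in unactivated cells (0.61 ± 0.14, adjusted p = 0.0026, limma), and so was DTX1, a target gene of Notch signalling, at 35.9 ± 3.51 at 4 h, against 24.03 ± 1.32 in unactivated cells (0.56 ± 0.16, adjusted p = 0.011, limma). In labelled RNA 4 rose and 2 fell at 4 h, while 13.7% of all genes rose and 13.7% fell. At 1 h 0 rose and 2 fell in labelled RNA, while 4.20% of all genes rose and 2.07% fell. The 2 that fell in labelled RNA at 1 h were CD1D, with a log2 change of -1.42, and ARPP21, with -0.97.

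More of the T cell markers rose than fell in total RNA at 4 h. Of the 6 in the table, 3 rose, 1 fell and 2 were not called in total RNA at 4 h, while 21.4% of all genes rose and 14.5% fell. Their median log2 change was 0.25, against 0.02 over all genes. In labelled RNA at 4 h 2 rose and 0 fell, while 13.7% of all genes rose and 13.7% fell. CD28, the costimulatory receptor gene, was at 58.6 ± 0.501 in total RNA at 4 h, against 28.2 ± 4.05 in unactivated cells (log2 change 1.03 ± 0.11, adjusted p = 3.5e-07, limma). CD3D, CD247 and CD3G, genes of the receptor complex, had log2 changes of 0.40, 0.34 and -0.24 in total RNA at 4 h, all called. At 1 h the markers had 0 calls in either kind of RNA, and AIF1, the myeloid marker, had 0 calls at 1 h and 4 h.

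The neighbours of the recombinase genes on chromosome 11 were not called at 1 h or 4 h in either kind of RNA. Of 6 neighbours 2 were in the table. TRAF6, the ubiquitin ligase gene whose annotated start lies beside that of RAG1, was at 21.4 ± 3.70 in total RNA at 4 h, against 22.5 ± 2.83 in unactivated cells (log2 change -0.07 ± 0.14, adjusted p = 0.73, limma). In labelled RNA it was at 44.4 ± 1.91 at 4 h, against 60.7 ± 5.42 in unactivated cells (-0.44 ± 0.19, adjusted p = 0.083, limma), and 1 alternative, a constant prior for the variance, put it past the threshold at an adjusted p of 0.044. TRIM44, a gene further along the chromosome, was at 28.7 ± 1.72 in total RNA at 4 h, against 25.7 ± 4.94 in unactivated cells (0.16 ± 0.17, adjusted p = 0.49, limma).

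**Figure D5:**
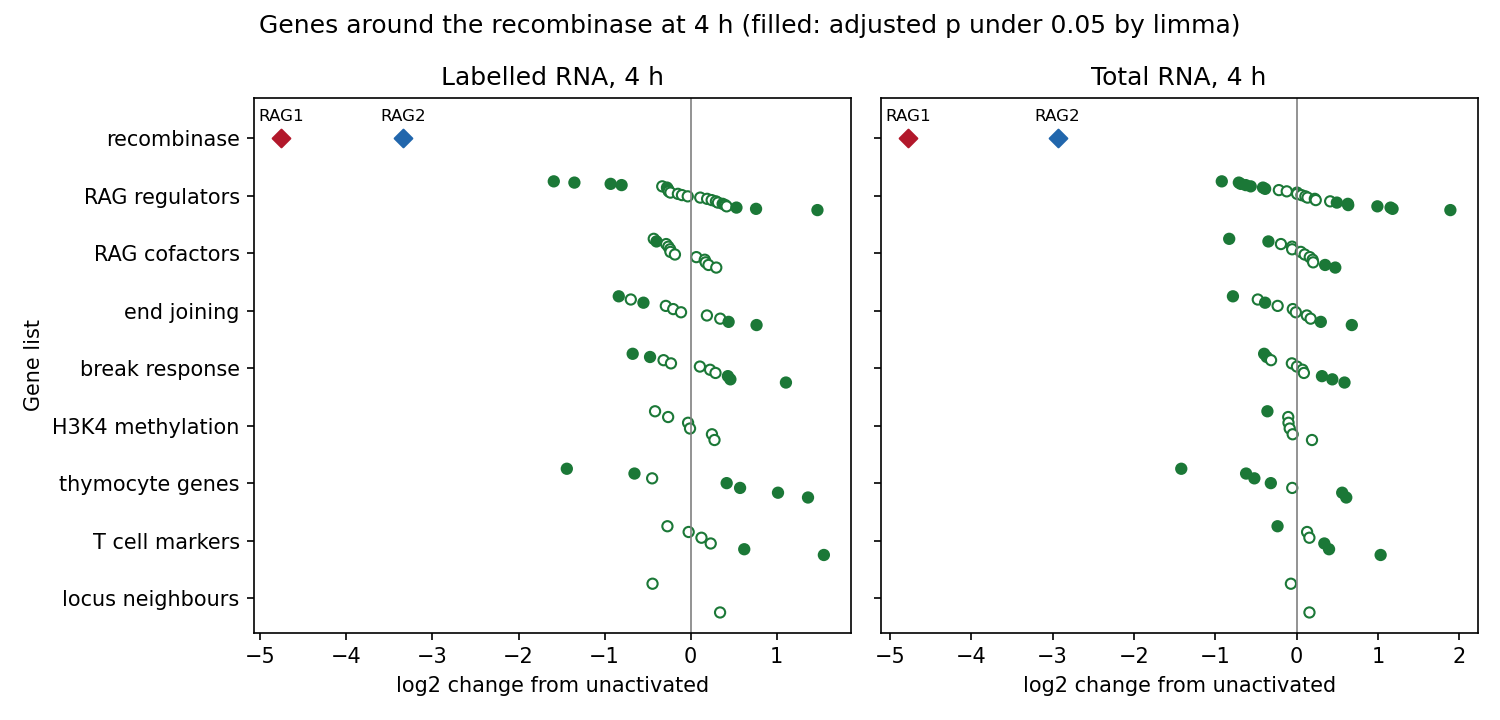
Log2 change from unactivated cells at 4 h in labelled RNA and in total RNA for the genes of 8 lists around the recombinase, 1 point a gene, filled where limma gave an adjusted p under 0.05, with RAG1 and RAG2 as untested diamonds. In total RNA RAG1 was at -4.78 and RAG2 at -2.94. They were picked for these drops, so every listed gene lay above them by that choice. The lowest listed gene was CD1D at -1.42.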

How the data were processed

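The authors aligned and counted reads with TopHat2, HTSeq and edgeR on hg19, per the submitters' processing notes, and no source used here gives their versions. The library kit was ScriptSeq after RiboZero depletion, per the labels' protocols. The deposited table held, per the file headers, the authors' group means and SDs of a normalised signal in labelled and total RNA. It also held an RPKM by the authors, decay rates on a natural log scale and T scores, a score by the authors. Here limma 3.58.1 in R 4.3.3 was fitted to log2(value + 1), with SDs carried to that scale, over 5 groups of 1 kind of RNA with 9 degrees of freedom, a mean-dependent robust prior and Benjamini-Hochberg adjustment over 7485 genes. No filter on low values was used, and the lowest group mean was 1.08. The steps were tested on simulated data. RAG1, RAG2 and the 10 gene lists (78 of 132 genes measured) were chosen with earlier results of these data known. Named genes were RAG1, RAG2, the 5 nearest to each, the locus neighbours and up to 4 called genes of each list with the largest change in total RNA at 4 h. One of the nearest genes is not reported here. Alternatives were a pseudocount of 5, median centring, a minimum mean of 10, the spread of the compared groups and a constant prior.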

Additional observations from a re-analysis of the deposited data

How the results depend on the processing

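Of 252 values computed under alternatives, 234 were counted as the same. For log2 changes and ratios of RAG1 and RAG2 that meant a move within the combined SD, and 0 of them changed direction. For counts of calls it meant a count within a set factor of the main one. By that measure 1554 genes called in labelled RNA at 4 h with the spread of the 2 groups, against 2054, counted as the same. The uncalled 1 h changes of 8 genes named by rule turned sign with median centring. With a pseudocount of 5 the log2 change of RAG1 in total RNA was -3.86 at 3 h and -4.40 at 4 h, and that of RAG2 was -3.58 in labelled RNA at 3 h, and -2.39 at 3 h and -2.36 at 4 h in total RNA. The labelled-to-total ratios moved by less than their combined SD in 20 of 20 alternatives. With the spread of the 2 groups compared, 231 genes were called in labelled RNA at 1 h, and with a constant prior 291, against 469, and 5 RAG regulators under each, against 9. In total RNA at 1 h the spread of the 2 groups gave 160 calls, against 70. Of the named genes, TDP2 and RNF168 lost their labelled call at 4 h under the spread of the 2 groups and the constant prior, ID1 lost its labelled call at 4 h with the spread of the 2 groups, SKP2 and TRAF6 gained one at 4 h with a constant prior, and CUL4A gained one at 1 h with median centring. XRCC5, IKZF1, ETS1 and SATB1 lost their labelled call at 1 h under the spread of the 2 groups and the constant prior, FOXP1 lost its labelled call at 4 h under the first and NBN under the second, and ARPP21 gained a call in total RNA at 1 h with median centring or the spread of the 2 groups. SATB1 also gained a call in total RNA at 4 h with a minimum mean of 10 or the spread of the 2 groups. The cause was not tested. No paired analysis was possible because the table gives only group means and SDs, and leaving out replicates was not run for the same reason. The number of reads behind a value is unknown outside total RNA at 1 h, so the counting error of the low RAG2 levels at 3 and 4 h cannot be given.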

Other observations

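The authors' deposited table also gives an RPKM for each gene, which did not rank the recombinase genes as their levels did. It was 36.8 for RAG1 and 39.5 for RAG2 in that table, while the mean total level over the 5 groups, divided by the GENCODE transcript length, was 21.9 per kb for RAG1 and 9.71 per kb for RAG2. The RPKM was thus 1.68 times the per-length level for RAG1 and 4.07 times for RAG2, against a median of 2.70 over 7340 genes. No source used here says which samples and gene lengths the RPKM used.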
